A study of Mus musculus with 8 samples.

Results

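A set of 165 array probes separated individual beta-catenin liver tumors from each other while staying steady in normal mouse liver. They were picked from the 45281 probes of the array by their intensities alone. Each array's intensities were floored at its 5th percentile, put on the log2 scale and quantile normalised, and the 22640 probes with a mean above that of the median probe (6.13, a signal of 69.9) were kept. A kept probe became a member where tumors 1, 2 and 3 spanned over 2 on the log2 scale (4-fold) and the 4 normal livers spanned under 1 (2-fold). The tumor limit alone was met by 266 probes, of which 101 were left out because normal livers spanned 1 or more. Of the 165 members, 143 carried 1 gene symbol, standing for 118 genes of the 19057 that the array's annotation names, and 22 carried none. The ranges of tumors 1 to 3 and of the normal livers chose these probes, so the spans and departures below are descriptions without a test.

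The samples were 4 liver tumors of Ctnnb1 flox(ex3)/+ mice and 4 normal livers of wild-type mice. Every animal was of the C57BL/6N strain, and each sample had an array of its own. The labels give no age, and neither a Cre driver nor the origin of the 4 tumors from separate mice is stated in the sources used here, so a p-value here speaks of the spread among the samples at hand, which may be technical. Genotype and tumor state changed together in this design and cannot be told apart. The series title calls the model one of beta-catenin activation and also a knockout. The members were read for which tumor kept the normal level, which departed, and in which direction.

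Beta-catenin is the transcriptional arm of Wnt signalling, and loss of the part encoded by exon 3 keeps the protein from being degraded. In healthy liver, Wnt signalling sets up the zones of the lobule: hepatocytes near the central vein run Wnt-dependent programmes, and those near the portal vein run urea synthesis and gluconeogenesis. A bulk tumor sample also holds the tumor's neighbours, among them Kupffer cells, which are the resident macrophages of the liver, other myeloid cells and vessels.

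The arrays matched their labels at the group level. Of 21 tested Wnt/beta-catenin target genes of liver, 18 were higher and 1 was lower in tumor by limma at an adjusted p of 0.05, against 13.2% of all tested probes higher and 14.2% lower. Without tumor 4 it was 16 higher and 1 lower, where 18.3% of all tested probes were called in either direction. Dkk3 was the single member among them. All 20 genes of a hepatocyte identity list were tested, and their summed normalised signal was 286935 to 304676 in tumors and 320915 to 357928 in normal livers. The arrays' median intensity before normalisation was 64.0 to 69.2 in tumors and 72.3 to 79.4 in normal livers. The brighter Eif2s3y probe of the Y chromosome lay at 10.70 to 11.67 in tumors and 11.69 to 11.81 in normal livers. The dimmer one stayed at 5.90 to 6.37 on all arrays. No Xist probe passed 6.90 on any array. The highest Xist values, 6.86 and 6.90, were both in normal liver 1, and the same probes lay at 5.55 to 5.80 on the other arrays. Each array thus carried a Y-linked transcript. Normal liver 4 stood apart by skeletal muscle transcripts: 7 tested muscle genes lay at 10.02 to 13.28 there and at 7.12 or lower on every other array. Without normal liver 4, 190 probes met the rule.

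Tumor 4 did not enter the limits. At 163 of the 165 members (98.8%) its level fell inside the span of tumors 1 to 3, against 72.3% of all tested probes. The members were chosen for a wide span of tumors 1 to 3, which makes a value inside it more likely, so nothing is read from these shares. The exceptions were 2 probes, one for the major urinary protein gene Mup6 and one with no gene symbol, ILMN_2875730. Its level was nearest to that of tumor 3 at 79 members, of tumor 2 at 48 and of tumor 1 at 38, with a median position of 0.68 of the way from the lowest to the highest on the log2 scale and 0.46 on the linear scale. Whether tumor 4 holds tissue or RNA of the other tumors was not tested, so adjusted p-values and counts of calls are given with it and without it. The contrast of tumor with normal liver uses the values that chose the members, so for members its p-values are descriptions and not independent evidence.

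Tumor 3 was the most distant from normal liver at 81 members, above it at 51 and below it at 30. Tumor 1 was the most distant at 66 members, above normal at 28 and below at 38. Tumor 2 was the most distant at 18, of which 17 lay above. A tumor is said to depart where it lay over 2-fold from the mean of the 4 normal livers, and to keep the normal level otherwise. A single tumor of the 3 departed at 60 members, a pair at 63 and all 3 at 42. Departures went only upwards at 93 members, only downwards at 69 and both ways at 3.

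Each tumor departed in both directions. Tumor 1 lay over 2-fold above normal at 58 members and below at 45, where 4.78% and 3.71% of all tested probes did so. Tumor 2 lay above at 51 and below at 41 (3.28% and 2.31% of all tested probes). Tumor 3 lay above at 60 and below at 57 (4.69% and 3.52%). Tumor 4 lay above at 85 and below at 48 (4.4% and 2.99%). The rule demanded spread in tumors 1 to 3, so nothing is read from these counts against the shares of all probes.

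**Figure D1:**
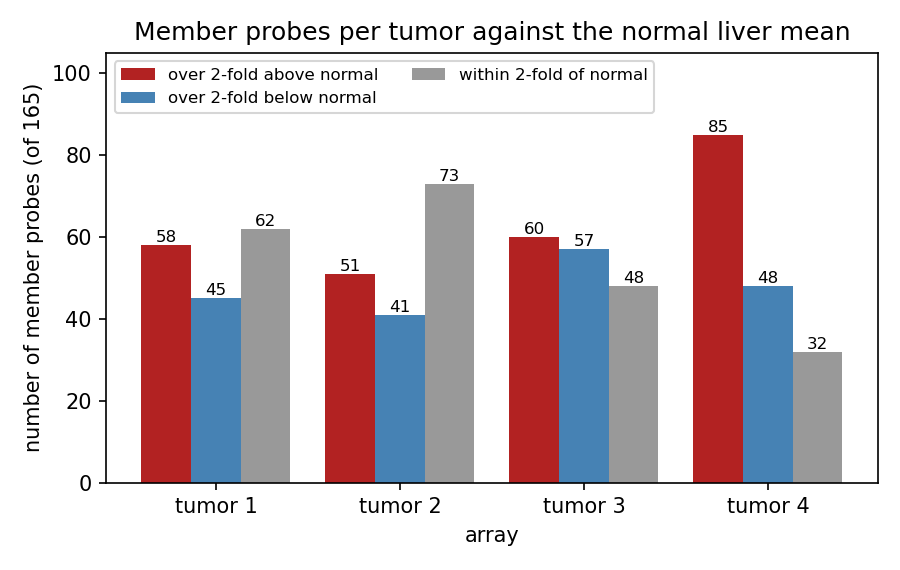
Number of member probes (of 165, vertical axis) in each tumor that lay over 2-fold above the normal liver mean, over 2-fold below it, or within 2-fold of it. Tumor 2 kept the normal level at 73 probes, tumor 1 at 62, tumor 3 at 48 and tumor 4 at 32.

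Tumors 1 and 2 lay closer to each other than to tumor 3 at the median member. The median distance between tumors 1 and 2 was 0.79 (log2), against 2.38 between tumors 1 and 3 and 2.02 between tumors 2 and 3. Tumors 1 and 3 were over 4-fold apart at 124 members and tumors 1 and 2 at 45. Tumors 3 and 4 were 0.77 apart at the median. The patterns below are those of tumors 1 to 3 and leave tumor 4 out. The most frequent pattern was all 3 tumors below normal (27 probes), followed by tumors 1 and 2 above with tumor 3 at the normal level (25), tumor 3 alone above (25), tumor 3 alone below (19), all 3 above (14), and tumors 1 and 3 above with tumor 2 at the normal level (10).

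**Figure D2:**
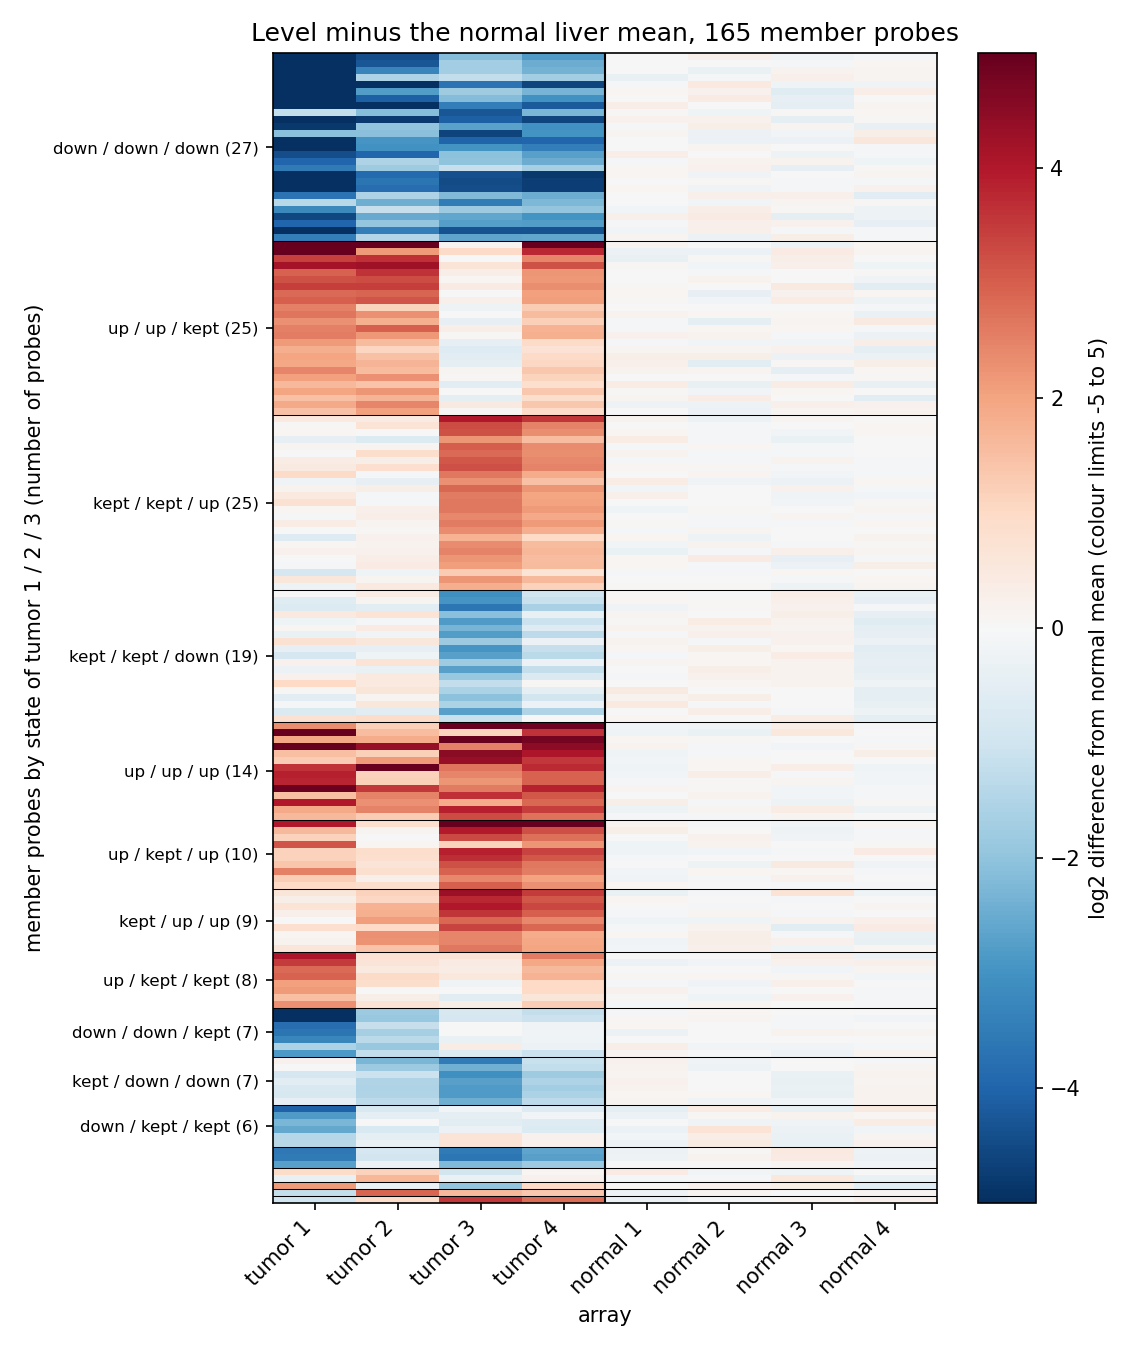
Log2 level of each member probe (rows, grouped by the state of tumors 1, 2 and 3) minus the mean of the 4 normal livers, on the 4 tumor arrays (left) and the 4 normal liver arrays (right). Normal livers stay near 0 by the choice of probes, and the blocks of 27, 25, 25 and 19 probes show the most frequent patterns.

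Some probes lay near the limits, on either side. Inside the tumor limit, 21 members spanned 2.0 to 2.08, and 28 probes outside it spanned 1.90 to 2.0. Inside the normal limit, 8 members spanned 0.90 to 1.0 in normal livers, and 11 probes outside it spanned 1.01 to 1.10. The median member spanned 2.54 in tumors 1 to 3 and 0.50 in normal livers, and the widest, a probe for Igf2, spanned 7.44. The tumor that carried the set was tumor 3: without it, 45 of the 165 probes still met the rule, against 86 without tumor 1 and 124 without tumor 2.

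**Figure D3:**
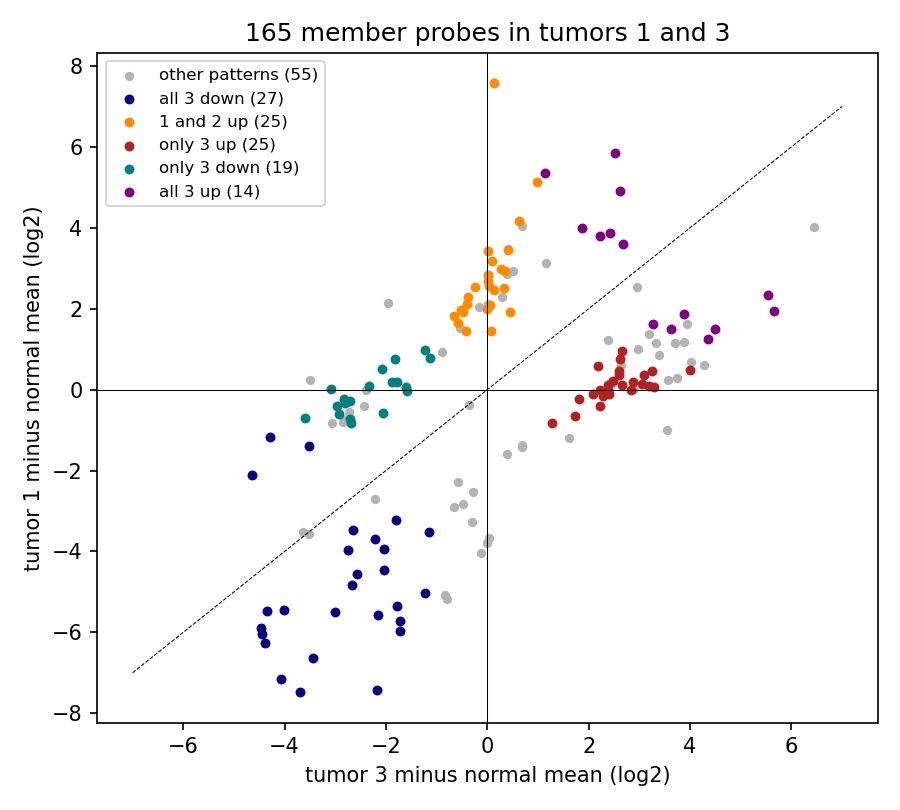
Log2 difference of tumor 1 (vertical axis) and of tumor 3 (horizontal axis) from the same normal liver mean, 1 point per member probe, coloured by pattern, with the line of equality dashed. The 25 probes above normal in tumors 1 and 2 stand near 0 for tumor 3, and the 25 and 19 probes of tumor 3 alone lie near 0 for tumor 1.

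The widest member was Igf2, which encodes insulin-like growth factor 2, a growth factor of fetal liver that the adult liver makes little of. Its log2 intensity was 14.48, 13.69, 7.04 and 13.48 in tumors 1 to 4, against 7.06, 6.90, 6.65 and 7.01 in normal livers 1 to 4. Tumors 1, 2 and 4 stood far above all normal livers, and tumor 3 lay within their range. The signal was 190-fold the normal mean in tumor 1, 110-fold in tumor 2, 95.3-fold in tumor 4 and 1.10-fold in tumor 3. Over all 4 tumors the log2 difference was 5.27 ± 1.38 (SE), with an adjusted p of 0.0197 by limma and of 0.0618 without tumor 4. On the oncofetal list, to which Igf2 belongs, 9 of 11 tested genes were higher in tumor by limma and 0 lower (7 and 0 without tumor 4), and 4 of the 11 lay over 2-fold above normal in tumor 3 against 7 each in tumors 1, 2 and 4. Dlk1, another fetal gene of that list and no member, is named after its values were seen. It had 8.43, 8.27, 6.47 and 7.49 in tumors, against 5.96, 6.27, 5.91 and 6.04 in normal livers, with the lowest tumor value again in tumor 3. Akr1c18 and Ly6d of the list, also named after their values were seen, were instead highest in tumor 3. Akr1c18 had 6.78, 7.60, 8.72 and 7.94 in tumors, and Ly6d had 13.49, 13.32, 14.17 and 13.87.

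Tspan8, a tetraspanin of the cell surface, shared the direction of Igf2 and its order of tumors 1 to 3, but tumor 4 ranked above tumor 2. It had 12.56, 9.57, 8.41 and 11.19 in tumors 1 to 4, against 7.15, 7.14, 7.86 and 7.59 in normal livers. All tumors lay above all normal livers, tumor 1 by far the most, at 34.9-fold the normal mean (adjusted p 0.0154, and 0.0512 without tumor 4). Over the 8 arrays its nearest tested probe was the member Vil1 (Pearson r = 0.992, a description over arrays that share their groups). Lyve1, a receptor of lymphatic and sinusoidal endothelium, had 11.69, 10.82, 9.35 and 10.57 in tumors, against 9.42, 9.35, 8.80 and 9.33 in normal livers. Tumor 3 was inside the normal range, and the others lay above it (adjusted p 0.0319, and 0.0736 without tumor 4). Of the 11 tested endothelial genes, 4 were higher and 3 lower in tumor by limma (2 and 3 without tumor 4). The list's summed signal was 5617 to 11740 in tumors and 13491 to 14209 in normal livers, lowest in tumor 3. That sum is weighted to its brightest gene, Clec4g, at 10.52 to 12.36 in tumors and 13.09 to 13.22 in normal livers.

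Granule genes of neutrophils formed a block of the same pattern. Mpo, which encodes myeloperoxidase, had 9.93, 10, 6.39 and 8.95 in tumors 1 to 4, against 5.83, 5.63, 6.03 and 5.55 in normal livers. Ltf, for lactoferrin, had 9.53, 9.53, 6.48 and 8.41 in tumors, against 6.13, 6.10, 6.54 and 5.55 in normal livers. Camp, for the antimicrobial peptide cathelicidin, had 9.24, 9.32, 6.42 and 8.46 in tumors, against 6.50, 6.00, 6.64 and 6.50 in normal livers. In all 3 genes tumors 1 and 2 were high, tumor 4 was between, and tumor 3 was close to normal liver, inside the normal range for Ltf and Camp and above it for Mpo. The adjusted p by limma was 0.00946 for Mpo, 0.0159 for Ltf and 0.0279 for Camp, and 0.0308, 0.0424 and 0.0715 in that order without tumor 4.

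The other genes of the neutrophil list took the same course. Of 9 listed genes 8 were tested, all 8 were higher in tumor by limma but only 4 without tumor 4, and all 8 lay over 2-fold above normal in tumors 1 and 2, 7 in tumor 4 and 0 in tumor 3. The list's summed signal was 16142, 15737, 2515 and 9025 in tumors 1 to 4, against 1358, 1550, 3721 and 736 in normal livers 1 to 4. Tumor 3 thus fell inside the normal range, which normal liver 3 topped, and the other tumors lay above it. Cxcr2 was too dim to be tested, and Mpo stayed at 5.55 to 6.03 in normal livers, under the level of the median probe. In bulk tissue, more cells of a type and more RNA per cell cannot be told apart, and the part of other cell types in any member's spread was not tested.

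Chil3, a chitinase-like protein of myeloid cells, ran with them, at 9.60, 9.83, 6.20 and 8.63 in tumors, against 5.82, 6.25, 6.49 and 6.15 in normal livers. Tumor 3 was within the normal range and the others were far above (adjusted p 0.0271, and 0.0684 without tumor 4). Its neighbour on chromosome 3, Chil4, was a member of the same pattern, and the sequences of the pair are so alike that a probe may read both. Among all tested probes, the one closest to Mpo over the 8 arrays was that of Chil4 (r = 0.996). Ctsg, for the neutrophil protease cathepsin G, and Ctse, for cathepsin E, were further members of the pattern and are named after their values were seen. Ctsg had 7.75, 7.95, 5.73 and 6.81 in tumors, against 5.71, 5.66, 5.60 and 5.74 in normal livers. The other tested Ctse probe did not repeat the pattern. It had tumors 1 to 3 at 0.10, 0.51 and 1.17 (log2) above normal, highest in tumor 3, and spanned 1.70 in normal livers.

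**Figure D4:**
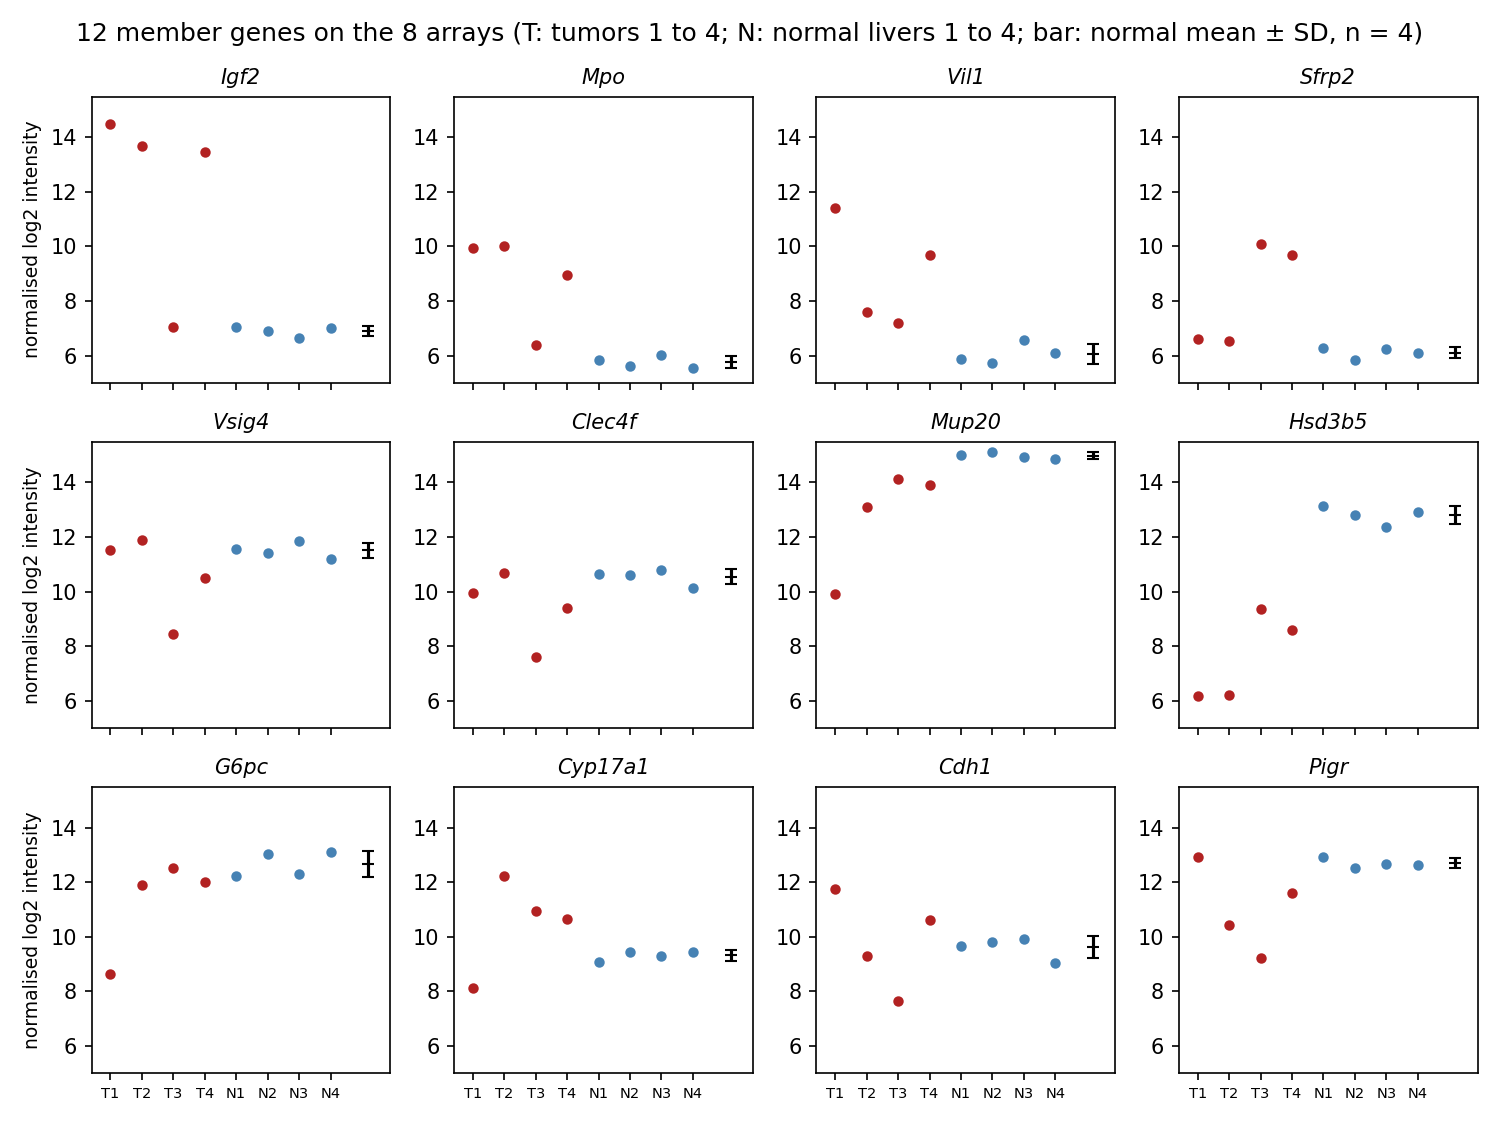
Normalised log2 intensity of 12 member genes on each array, tumors 1 to 4 (red, left) and normal livers 1 to 4 (blue, right), with the normal mean ± SD (n = 4) as a bar. Igf2 and Mpo are high in tumors 1, 2 and 4, Sfrp2 is high in tumors 3 and 4, Vsig4 and Clec4f are lowest in tumor 3, and Mup20 and G6pc are lowest in tumor 1.

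Genes induced by interferon were also members, in different patterns. Oasl2 departed upwards in tumors 1 and 2, Oasl1 in tumor 1 and Gbp3 in tumor 2, and tumor 3 kept within 2-fold of normal for all 3. Oasl2, an oligoadenylate synthetase-like protein, had 10.57, 10.08, 8.09 and 9.55 in tumors 1 to 4, against 8.88, 8.91, 8.30 and 8.30 in normal livers. Oasl1, a relative encoded close by on chromosome 5, had 10.46, 9.29, 8.25 and 9.40 in tumors, against 8.35, 8.26, 8.67 and 8.40 in normal livers. Gbp3, a guanylate-binding protein, had 9.09, 9.32, 7.26 and 8.27 in tumors, against 8.56, 8.02, 7.94 and 8.14 in normal livers. Tumor 3 was below every normal liver for all 3 genes, and tumors 1 and 2 were above every normal liver. None of the 3 passed limma (adjusted p 0.145, 0.0950 and 0.599, and 0.235, 0.181 and 0.599 without tumor 4), and Oasl probes may read each other's transcripts.

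Of 18 genes on the interferon list 15 were tested, and 5 were higher and 0 lower in tumor by limma (3 and 0 without tumor 4). Tumor 1 lay over 2-fold above normal at 9 of the 15, tumor 2 at 4 and tumors 3 and 4 at 1 each. The list's summed signal was 25314, 28598, 16544 and 20624 in tumors 1 to 4, against 14618, 14696, 17123 and 13507 in normal livers, so tumor 3 was inside the normal range. That sum is weighted to the list's brightest gene, Ifi27, at 13.32 to 14.05 in tumors and 13.10 to 13.60 in normal livers. The gene over 2-fold above normal in tumor 3 was Usp18, a protease that removes ISG15 from proteins, which is no member. Usp18 had 12.02, 11.70, 11.43 and 11.77 in tumors, against 8.92, 8.63, 8.71 and 8.41 in normal livers. It rose by 3.06 ± 0.15 (SE, adjusted p 3.29e-06 by limma, and 6.1e-05 without tumor 4), and the other interferon genes of the list lay within 2-fold of normal in tumor 3.

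The promoters of such genes often hold the interferon-stimulated response element, to which interferon-activated factors bind. Its core was searched on both strands as GAAA, any 2 bases and GAAA again, from 250 bases before to 50 after each start in RefSeq GRCm38.p6. Of the 118 member genes, 86 were in that table, and 7 of them (8.14%) held a match, against 3.99% of all 27025 genes. Among the genes high in tumors 1 and 2 with tumor 3 at the normal level, 3 of 15 held one: Oas1g, Apol9a and Igf2. The windows of Oasl1 and Oasl2 held none. A match describes letters and is not a binding site. The windows of 3 members whose lowest tumor was tumor 3 are shown, each with a pair of overlapping matches, together 16 letters long and in capitals, that lie on either strand. They are Oas1g (chr5:120887564-120887863, minus strand, matches beginning 18 and 12 bases before the start), Apol9a (chr15:77411031-77411330, minus strand, 59 and 53 bases before it) and Gbp3 (chr3:142559794-142560093, plus strand, 45 and 39 bases before it).
Oas1g: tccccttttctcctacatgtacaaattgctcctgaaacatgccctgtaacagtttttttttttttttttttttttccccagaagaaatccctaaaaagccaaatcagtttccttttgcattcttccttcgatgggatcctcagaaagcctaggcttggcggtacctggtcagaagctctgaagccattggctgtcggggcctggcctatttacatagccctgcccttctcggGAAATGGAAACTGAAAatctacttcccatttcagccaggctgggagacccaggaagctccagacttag
Apol9a: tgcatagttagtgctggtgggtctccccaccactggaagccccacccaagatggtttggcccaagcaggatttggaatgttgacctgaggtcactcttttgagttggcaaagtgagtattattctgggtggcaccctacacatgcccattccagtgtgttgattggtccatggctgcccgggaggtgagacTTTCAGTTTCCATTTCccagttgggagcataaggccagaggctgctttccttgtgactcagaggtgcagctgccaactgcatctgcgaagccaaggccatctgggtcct
Gbp3: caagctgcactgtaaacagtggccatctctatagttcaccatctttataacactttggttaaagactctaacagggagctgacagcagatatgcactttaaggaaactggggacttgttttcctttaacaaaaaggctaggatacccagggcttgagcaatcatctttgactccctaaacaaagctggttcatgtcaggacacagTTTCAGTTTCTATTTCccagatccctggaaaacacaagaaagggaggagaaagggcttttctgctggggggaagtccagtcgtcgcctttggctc

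Oas1g and Apol9a, named here for their promoters, had their lowest tumor value in tumor 3. Oas1g, another oligoadenylate synthetase, had 10.48, 10.07, 7.80 and 9.38 in tumors 1 to 4, against 7.97, 7.88, 7.87 and 7.44 in normal livers. Tumor 3 was within the normal range, and the other tumors were above it. Apol9a, an apolipoprotein L, had 12.25, 12.03, 10.05 and 11.46 in tumors, against 10.97, 10.25, 10.99 and 10.24 in normal livers, with tumor 3 under all normal livers. Its near-copy Apol9b was a member of the pattern with tumor 3 alone below normal, and probes of the pair may read both. The Wnt factor core CTTTGAT was found in 5 of the 86 member genes (5.81%, against 4.29% of all genes) and the myeloid factor core GAGGAAGT in 2 (2.33%, against 3.69%).

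Among tumors 1 to 3, tumor 3 alone lay below normal at 19 members, and Kupffer cell genes led them. Tumor 4 also lay over 2-fold below normal at 8 of the 19. Vsig4, a complement receptor of Kupffer cells, had 11.53, 11.90, 8.43 and 10.51 in tumors 1 to 4, against 11.55, 11.43, 11.86 and 11.19 in normal livers. Clec4f, a lectin made by Kupffer cells, had 9.94, 10.69, 7.61 and 9.41 in tumors, against 10.63, 10.61, 10.79 and 10.13 in normal livers. Fcna, for ficolin A, a lectin of macrophages that starts the complement cascade, had 10.94, 11.10, 8.03 and 10.01 in tumors, against 11.45, 11.70, 11.87 and 11.53 in normal livers. Tumor 3 was far below all normal livers, by 8.45-fold for Vsig4, 7.63-fold for Clec4f and 12.2-fold for Fcna, while tumors 1 and 2 kept within 2-fold of normal. Tumor 4 was below all normal livers for all 3 genes.

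Csf1r, a less specific macrophage gene, and Epb41l3, which is on none of the gene lists, were members too. Csf1r, the receptor for the main macrophage growth factor, had 9.65, 10.19, 7.98 and 9.12 in tumors, against 10.02, 9.61, 9.55 and 9.14 in normal livers. Epb41l3, which links the membrane to the cytoskeleton, had 9.13, 9.30, 6.55 and 8.26 in tumors, against 8.76, 8.61, 8.93 and 8.22 in normal livers. At both member probes, only tumor 3 departed. The other tested Epb41l3 probes did not repeat this, with tumor 3 at 0.17 and 0.18 (log2) above normal. At the other tested Csf1r probe tumor 3 was the lowest of tumors 1 to 3 but within 2-fold of normal, at -0.46. None of these 5 genes differed over all tumors by limma, with adjusted p from 0.0632 for Fcna to 0.703 for Epb41l3, and from 0.128 to 0.780 without tumor 4. Timd4 and Folr2, surface receptors of resident macrophages named after their values were seen, were members of the same pattern: Timd4 had 7.89, 8.61, 6.42 and 7.54 in tumors, against 8.65, 8.78, 8.48 and 7.99 in normal livers.

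On the macrophage and myeloid list 13 of 20 genes were tested. Tumor 3 lay over 2-fold below normal at 7 of them, tumor 4 at 2 and tumors 1 and 2 at 1 each, and by limma 0 were higher and 1 was lower, with and without tumor 4: the scavenger receptor Marco. The summed signal of the list was 33556, 38780, 15498 and 23638 in tumors 1 to 4, against 29250, 24118, 26084 and 18638 in normal livers, so tumor 3 was the lowest of the 8 arrays. The class II antigen genes H2-Aa and H2-Eb1 of the list did not share the pattern: tumor 3 lay 0.31 and 0.24 above normal. Cd5l, Itgam and Itgax were too dim to be tested.

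Orm1, for the acute phase plasma protein orosomucoid made by hepatocytes, was another member of this pattern. It had 13.96, 14.10, 11.96 and 13.18 in tumors, against 14.68, 15.00, 14.64 and 14.42 in normal livers. All tumors lay below all normal livers, tumor 3 by 6.59-fold, and it was the only member of the pattern that passed limma (log2 difference -1.39 ± 0.41, adjusted p 0.0316, and 0.0810 without tumor 4). On the acute phase list, 5 of 19 tested genes were lower and 0 higher in tumor by limma (2 and 0 without tumor 4), and tumor 3 lay over 2-fold below normal at 9, tumors 1 and 4 at 6 each and tumor 2 at 4. The serum amyloid gene Saa1 of that list, chosen after its values were seen, also lay below all normal livers in all tumors, but in another order. It had 9.27, 11.55, 12.12 and 11.62 in tumors, against 13.30, 15.01, 14.73 and 13.54 in normal livers, with tumor 1 lowest. Both complement C4 genes, C4a and C4b, whose probes may read each other, were members and are named after their values were seen. A probe for C4b had 12.64, 12.85, 10.17 and 11.68 in tumors, against 12.92, 13.23, 13.20 and 12.55 in normal livers. C9, of the terminal complement complex and also named after its values were seen, had another pattern: a probe for it had 9.23, 12.09, 11.38 and 11.04 in tumors, against 14.01, 14.34, 14.20 and 13.69 in normal livers, lowest in tumor 1.

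Among tumors 1 to 3, tumor 3 alone lay above normal at 25 members. Tumor 4 also lay over 2-fold above normal at 24 of the 25. Sfrp2, a secreted modulator of Wnt signalling, had 6.59, 6.52, 10.10 and 9.67 in tumors 1 to 4, against 6.29, 5.82, 6.23 and 6.10 in normal livers. Ptn, for the growth factor pleiotrophin, had 5.90, 5.84, 9.0 and 8.15 in tumors, against 5.92, 5.73, 5.69 and 5.89 in normal livers. Sertm1, a small membrane protein, had 5.74, 6.37, 8.97 and 8.17 in tumors, against 5.69, 5.62, 5.66 and 5.78 in normal livers. Tumors 3 and 4 were high and all other arrays were at 6.59 or lower, near the median probe, where a change is compressed. Sfrp2 was 15.9-fold the normal mean in tumor 3 and Ptn 9.14-fold. Bhlhb9 had a higher base, at 6.82, 6.53, 9.45 and 8.78 in tumors, against 7.62, 7.17, 6.88 and 7.24 in normal livers, and was 4.68-fold the normal mean in tumor 3.

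With 2 low and 2 high tumors, none of these 4 genes passed limma (adjusted p 0.0718 for Sfrp2 to 0.449 for Bhlhb9, and 0.187 to 0.731 without tumor 4). Over the 8 arrays Sfrp2 ran closest to a probe for Fbln1 (r = 0.995). Fbln1, for the matrix protein fibulin-1 of fibroblasts, had 4 member probes in 3 patterns, since tumors 1 and 2 lay on either side of 2-fold. One of them had 7.27, 6.98, 9.99 and 9.46 in tumors, against 5.88, 5.98, 6.00 and 6.52 in normal livers, with all tumors above all normal livers and tumor 3 at 14.8-fold (adjusted p 0.0213, and 0.0650 without tumor 4). The other genes of the stellate cell and fibroblast list were mixed: of 13 tested, 5 were higher and 5 lower in tumor by limma, with and without tumor 4. With Fbln1, the list's summed signal was 11798 to 13169 in tumors and 16672 to 19599 in normal livers. Its brightest gene on each array was Dcn, at 12.35 to 13.05 in tumors and 13.49 to 13.78 in normal livers. The sum is weighted to Dcn and does not speak for the list as a whole.

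Wnt-related members other than Sfrp2 were few. Dkk3, of the Dickkopf family of secreted Wnt modulators, had 8.45, 10.63, 10.78 and 10.21 in tumors 1 to 4, against 8.45, 8.65, 8.29 and 8.0 in normal livers. Tumor 1 was within the normal range and the others were above it, tumor 3 at 5.39-fold the normal mean (adjusted p 0.0218, and 0.0627 without tumor 4). Apcdd1, a membrane inhibitor of Wnt signalling named after its values were seen, had 5.94, 5.95, 8.84 and 8.17 in tumors, against 5.75, 5.90, 5.73 and 5.81 in normal livers. Tumor 3 was the highest array for both.

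Neighbours on chromosome 15 were high in the same tumors, as seen after the values were known. Snhg18, a host transcript of small nucleolar RNAs, had 8.42, 8.95, 12.07 and 11.30 in tumors, against 7.47, 7.70, 8.47 and 7.58 in normal livers. Snord123, a small nucleolar RNA gene which follows it in RefSeq GRCm38.p6 with no gene between, had 6.55, 6.66, 9.24 and 8.57 in tumors, against 6.21, 6.35, 6.59 and 6.29 in normal livers. Sema5a, a semaphorin that comes next, had 6.72, 6.64, 9.45 and 8.76 in tumors, against 6.28, 6.29, 6.54 and 6.29 in normal livers. Tumors 3 and 4 were high in all 3 at these probes, and probes of overlapping transcripts may read the same RNA. A further tested Sema5a probe, which is no member, did not repeat this, with tumors 1 to 3 at -0.08, -0.02 and -0.03 (log2) from normal.

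All of tumors 1 to 3 lay below normal at 27 members, which were bright in normal liver, with a median normal level of 12.80. Their calls by limma restate this choice. Serpina1e, an alpha-1-antitrypsin of male-biased expression, had 8.89, 10.57, 13.14 and 12.38 in tumors 1 to 4, against 14.84, 14.85, 14.78 and 14.96 in normal livers. Mup21, a major urinary protein, had 9.02, 11.43, 13.03 and 12.37 in tumors, against 14.78, 14.42, 14.91 and 14.90 in normal livers. Hsd3b5, a steroid dehydrogenase of male-biased expression, had 6.17, 6.21, 9.36 and 8.60 in tumors, against 13.13, 12.79, 12.36 and 12.92 in normal livers. All tumors were below all normal livers, tumor 1 the most, by 62.4-fold for Serpina1e, 53.2-fold for Mup21 and 99.2-fold for Hsd3b5, and tumor 3 the least, by 3.30-fold, 3.31-fold and 10.9-fold. The adjusted p was 0.00719, 0.00804 and 0.000569 in that order, and 0.0116, 0.0145 and 0.00167 without tumor 4.

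Further urinary protein probes lay below normal in tumors 1 and 2 and kept the normal level in tumor 3. Mup20 had 9.91, 13.10, 14.14 and 13.92 in tumors, against 15.02, 15.12, 14.93 and 14.85 in normal livers. Mup3 had 10.89, 13.52, 14.67 and 14.50 in tumors, against 14.77, 14.68, 14.61 and 14.66 in normal livers. The named Mup2 probe had 11.31, 13.32, 15.00 and 14.80 in tumors, against 14.66, 14.95, 15.15 and 15.11 in normal livers. Tumor 1 was the lowest array for each, and tumor 3 was below all normal livers for Mup20 and within their range for Mup3 and Mup2. None passed limma (adjusted p 0.0635, 0.210 and 0.177, and 0.0634, 0.157 and 0.121 without tumor 4). The other tested Mup2 probes kept the normal level in tumor 2, at -0.39 and -0.25 (log2), and had tumor 1 at -1.80 and -1.21. Mup genes are near-identical copies in a cluster on chromosome 4, so a probe's signal may sum several of them. The named probes lay at 14.61 to 15.15 in normal livers. Whether an upper limit of the signal compressed differences at that level was not tested.

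Of 16 tested genes on the male-biased list, 9 were lower and 0 higher in tumor by limma (7 and 0 without tumor 4). Tumor 1 lay over 2-fold below normal at 11, tumor 2 at 12 and tumors 3 and 4 at 9 each. The summed signal was 58258, 73811, 125721 and 116152 in tumors 1 to 4, against 214402, 226119, 196842 and 215614 in normal livers, with tumor 1 lowest. On the female-biased list 4 of 13 tested genes were higher and 0 lower by limma (1 and 0 without tumor 4), with a summed signal of 43538 to 47913 in tumors and 11536 to 28010 in normal livers. The members on that list were Cux2 and Cyp17a1. Cux2, a transcription factor of female liver, had 8.59, 7.18, 5.82 and 7.34 in tumors, against 6.07, 6.08, 6.08 and 6.01 in normal livers. It was high in tumor 1 at this probe (adjusted p 0.0877, and 0.177 without tumor 4). Tumor 3 was below all normal livers, but all of these lay under the median probe (6.13), near background. The other tested Cux2 probes did not repeat the rise, with tumor 1 at 0.18 and 0.27 (log2) above normal.

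Enzymes of hepatocyte metabolism were also among these members. Cyp2f2, a cytochrome P450 of periportal hepatocytes, had 7.01, 9.39, 10.10 and 9.58 in tumors 1 to 4, against 14.40, 14.38, 13.69 and 14.21 in normal livers. Cyp8b1, which makes the precursor of cholic acid, had 7.44, 9.96, 8.89 and 8.94 in tumors, against 12.92, 12.62, 12.62 and 13.46 in normal livers. Sult2a8, a sulfotransferase, had 8.06, 10.61, 11.62 and 11.07 in tumors, against 13.49, 13.60, 12.78 and 13.74 in normal livers. All tumors lay below all normal livers and tumor 1 lay lowest, by 143-fold for Cyp2f2, 44.2-fold for Cyp8b1 and 40.4-fold for Sult2a8. The adjusted p was 0.000244, 0.000231 and 0.00772 in that order, and 0.00123, 0.00147 and 0.0157 without tumor 4.

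Serpina12, which encodes the serpin vaspin, had 8.30, 11.79, 12.11 and 11.61 in tumors, against 12.98, 13.29, 13.60 and 13.48 in normal livers. It fell in tumor (adjusted p 0.0350, and 0.0566 without tumor 4), with tumor 1 far under the others. At the other tested Serpina12 probe tumor 1 was again lowest, at -1.81 (log2), but tumors 2 and 3 were within 2-fold of normal, at -0.83 and -0.61. Cps1, the first enzyme of the urea cycle, had another order of the tumors, at 11.57, 11.58, 9.03 and 10.67 in tumors, against 13.81, 13.38, 13.52 and 13.95 in normal livers. Tumor 3 was the lowest, by 24.9-fold (adjusted p 0.00227, and 0.00986 without tumor 4). Egfr, the epidermal growth factor receptor, had 3 member probes of this pattern and is named after its values were seen. One had 8.24, 10.39, 9.73 and 9.45 in tumors, against 11.96, 12.19, 12.21 and 11.39 in normal livers, with tumor 1 lowest.

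The periportal list held 5 members, and they took 4 different patterns. All 15 of its genes with a probe were tested, and 11 were lower and 0 higher in tumor by limma (10 and 0 without tumor 4). Its summed signal was 42576, 44005, 29888 and 36358 in tumors 1 to 4, against 145366, 127926, 114355 and 138250 in normal livers. G6pc, which releases glucose in gluconeogenesis, had 8.63, 11.90, 12.53 and 12.01 in tumors, against 12.21, 13.03, 12.30 and 13.09 in normal livers, so that tumor 1 alone departed, by 16.3-fold (adjusted p 0.198, and 0.206 without tumor 4). Pigr, which carries antibodies into bile, had 12.92, 10.41, 9.21 and 11.60 in tumors, against 12.93, 12.53, 12.68 and 12.64 in normal livers, so that tumor 1 kept the normal level and the others lay below it (adjusted p 0.0841, and 0.112 without tumor 4). Cdh1, for the adhesion protein E-cadherin, had 11.74, 9.27, 7.64 and 10.62 in tumors, against 9.66, 9.82, 9.92 and 9.03 in normal livers. At this probe tumor 1 was 4.40-fold above the normal mean, tumor 2 was within the normal range and tumor 3 was 3.89-fold below the mean. The mean difference was thus 0.21 ± 0.73 (adjusted p 0.865, and 0.976 without tumor 4). The other tested Cdh1 probe did not repeat this: tumors 1 to 3 lay at 0.43, -0.38 and -0.26 (log2) from normal, all within 2-fold.

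**Figure D5:**
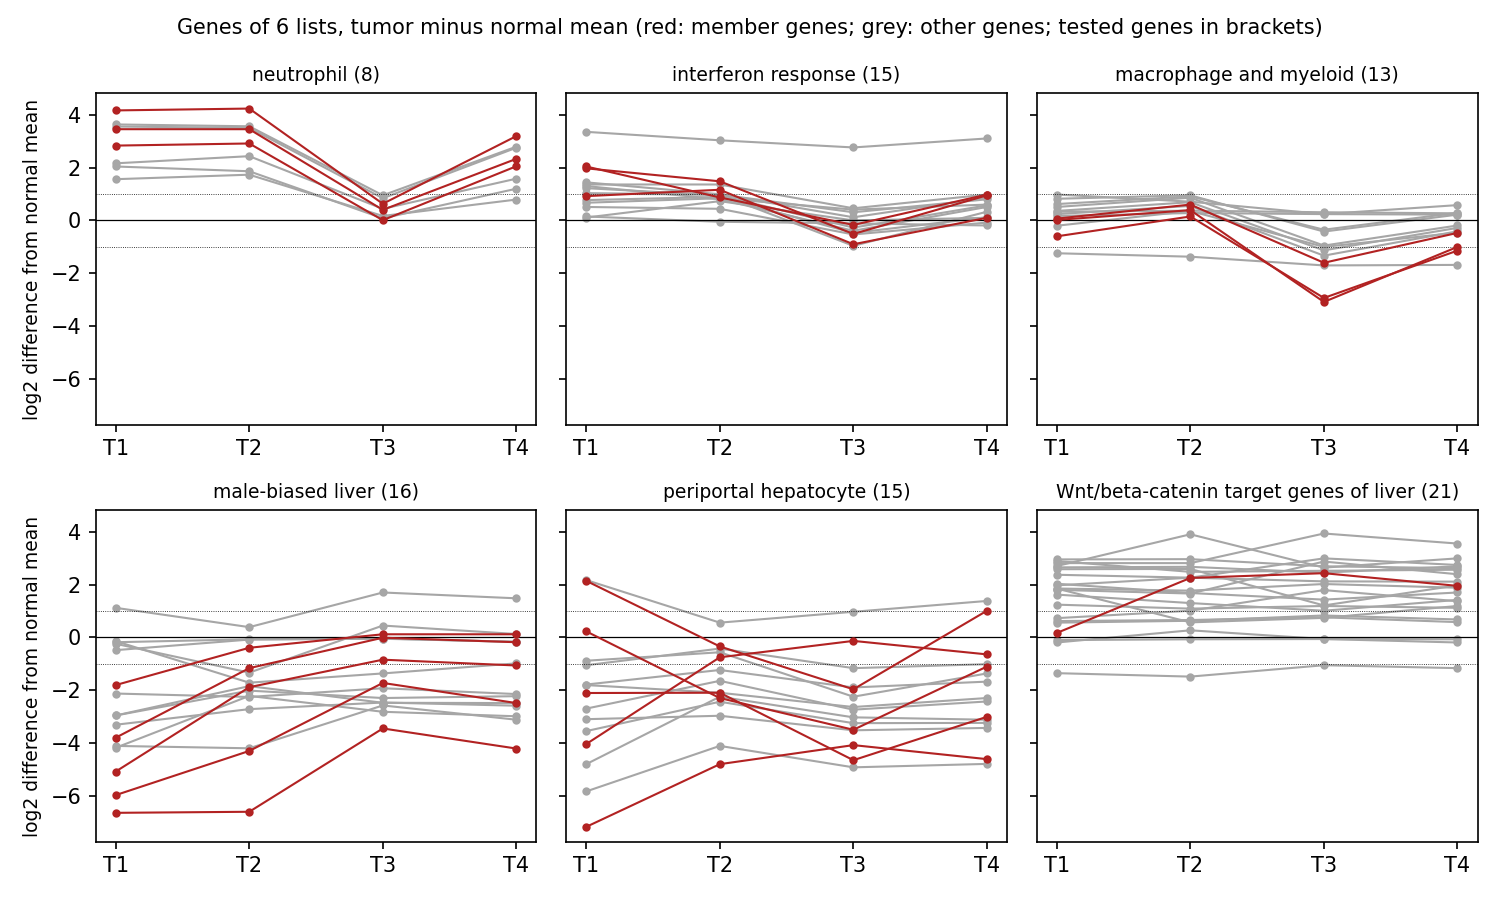
Log2 difference from the normal liver mean (vertical axis) in tumors 1 to 4 for every tested gene of 6 lists, 1 line per gene, with member genes in red and dotted lines at 2-fold. All 8 neutrophil genes lie over 2-fold above normal in tumors 1 and 2 and none in tumor 3, 7 of 13 macrophage genes lie over 2-fold below normal in tumor 3, and the Wnt/beta-catenin list holds the single member Dkk3.

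Cyp17a1, a steroid hydroxylase, also departed both ways. It had 8.12, 12.23, 10.93 and 10.65 in tumors, against 9.05, 9.44, 9.30 and 9.44 in normal livers. Tumor 1 was 2.28-fold below the normal mean, and tumors 2 and 3 were 7.59-fold and 3.08-fold above it (adjusted p 0.248, and 0.377 without tumor 4). Another pair of enzymes separated the tumors below normal, named after their values were seen. Nnmt, which methylates nicotinamide, had 10.77, 13.37, 10.67 and 11.58 in tumors, against 14.04, 14.45, 14.70 and 13.99 in normal livers for its brighter probe, so that tumors 1 and 3 were far below and tumor 2 was within 2-fold. Hsd11b1, which activates glucocorticoids, had 3 member probes, and the brightest had 13.63, 12.84, 11.55 and 12.66 in tumors, against 14.55, 14.41, 14.03 and 14.54 in normal livers, lowest in tumor 3. The other tested Hsd11b1 probe did not repeat this, with tumors 1 to 3 at 0.19, -0.13 and 0.35 (log2) from normal.

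All of tumors 1 to 3 lay above normal at 14 members, and calls by limma restate this choice. Tubb2b, a beta-tubulin, had 8.38, 7.25, 11.59 and 10.93 in tumors 1 to 4, against 5.93, 5.87, 6.40 and 6.01 in normal livers. Acsm4, an acyl-CoA synthetase, had 8.08, 7.97, 11.79 and 10.90 in tumors, against 6.24, 6.17, 6.10 and 6.02 in normal livers. Both were highest in tumor 3, at 46.6-fold and 50.4-fold the normal mean. Their adjusted p was 0.0129 and 0.00890, and 0.0422 and 0.0309 without tumor 4. The other tested Tubb2b probes also had tumor 3 highest of tumors 1 to 3, at 0.40 to 3.22 (log2) above normal. The brightest of them had tumors 1 and 2 at 1.84 and 1.46, but the rest had both within 2-fold of normal.

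Vil1 and Gpx2 were instead highest in tumor 1, and tumor 3 was their lowest tumor. Vil1, for villin of the epithelial brush border, had 11.40, 7.61, 7.18 and 9.68 in tumors, against 5.86, 5.71, 6.57 and 6.09 in normal livers. Gpx2, a glutathione peroxidase, had 11.96, 10.48, 8.63 and 10.58 in tumors, against 6.27, 6.03, 5.97 and 6.16 in normal livers. All tumors were above all normal livers, tumor 1 at 40.7-fold for Vil1 and 57.8-fold for Gpx2, and tumor 3 the least, at 2.18-fold and 5.75-fold. The adjusted p was 0.0239 for Vil1 and 0.000561 for Gpx2, and 0.0716 and 0.00332 without tumor 4. Of the 4 tested cholangiocyte genes, whose cells also make villin, 1 was higher and 0 lower by limma (0 and 0 without tumor 4), with a summed signal of 494 to 1520 in tumors and 649 to 906 in normal livers, highest in tumor 1. That gene was Anxa13, an annexin of epithelia and itself a member, at 9.41, 6.38, 7.45 and 8.50 in tumors, against 6.05, 6.46, 6.28 and 6.34 in normal livers, high in tumor 1 and normal in tumor 2 (adjusted p 0.0450, and 0.123 without tumor 4). Epcam, Krt19, Cftr and Prom1 were too dim to be tested.

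Sdcbp2, for the scaffold protein syntenin-2, showed the widest span after Igf2. It had 9.97, 6.79, 12.40 and 11.68 in tumors, against 6.11, 5.85, 5.81 and 6.05 in normal livers. All tumors were above all normal livers, tumor 3 at 87.6-fold, tumor 1 at 16.3-fold and tumor 2 at 1.79-fold (adjusted p 0.0121, and 0.0410 without tumor 4). Smim24, a small membrane protein, had 7.65, 6.91, 9.47 and 8.92 in tumors, against 6.26, 6.03, 6.72 and 6.12 in normal livers, highest in tumor 3 (adjusted p 0.0160, and 0.0525 without tumor 4).

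Other probes of the member genes mostly ranked the tumors alike. Of the 20 genes with more than 1 member probe, 17 had all of them in 1 pattern. A further 61 tested probes read 44 member genes without being members, and at 47 of them the highest and the lowest of tumors 1 to 3 were the same as at the member probe, and at 37 of the 40 that spanned over 1. A further 38 probes of these genes were too dim to be tested.

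Over the whole set, limma called 91 members (55.2%) between tumor and normal liver, 53 higher and 38 lower, where 27.4% of all tested probes were called. Without tumor 4 it called 58 (35.2%), 23 higher and 35 lower, where 18.3% of all tested probes were called. The median log2 difference was 0.93 in members and -0.02 in all tested probes, and the median SE was 0.48 and 0.12. The contrast shares its samples with the choice of members, so the share called is a description. The converse set, probes spanning over 2 in normal livers and under 1 in the tumors, held 138 probes, and 63 to 130 for each choice of 3 normal livers. Among normal livers 1 to 3, without the array that carried muscle transcripts, it was 71.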

How the data were processed

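Total RNA of 4 tumors and 4 normal livers was labelled with biotin and read on single-colour Illumina arrays, 1 per sample. The deposited intensity table holds 1 linear value per probe and array. BeadStudio was used, per the submitters' processing notes, with version and settings not given in the sources used here. A second deposited table holds log2 values whose normalization is not stated, and it served as an alternative. The tables carry no detection p-value, slide or scan label, so the number of arrays limits the precision and batches could not be tested. No column of another series was present.

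Intensities were floored at each array's 5th percentile, put on the log2 scale and quantile normalised in limma 3.58.1 (R 4.3.3). The 22640 probes above the median mean were fitted as tumor minus normal liver (lmFit, eBayes), with Benjamini-Hochberg adjustment over all of them and a threshold of 0.05. The fit was tested on simulated data. Folds are ratios of normalised intensities with no background subtracted, which understates changes of dim probes. Whether an upper limit of the signal compressed changes of the brightest probes was not tested. Tables were handled in pandas 2.3.3 (Python 3.11.15).

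Samples were grouped by their titles. Symbols came from the platform's annotation, where 34885 probes have 1 symbol, 18 several and 10378 none, and 141 of the 143 members with a symbol were found by gene identifier in RefSeq. Each listed gene is represented by its brightest tested probe. A list's summed signal is weighted to its brightest genes. Members and gene lists were chosen with earlier results of these data known. Genes named by rule are, in each of the 6 most frequent patterns, the 4 with the widest span in tumors 1 to 3, plus every member on a gene list. Others are marked as chosen after their values were seen. The alternatives changed the normalization, floor, background, filter on dim probes, limits, definition of departure, moderation, replicate block and the arrays included. Array values were compared on 8 arrays, with n = 4 per group.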

Additional observations from a re-analysis of the deposited data

Results flagged for a closer look

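Of 90 groups of 4 values looked at (the tumors and the normal livers for each named probe), 5 held an array whose gap to the nearest other array took up more of the group's range than Dixon's critical value for 4 samples. Chance flags about 1 in 20 groups. In tumors, Serpina12 stood at 0.869 of the range, with tumor 1 at 8.30 against 11.61 to 12.11 in the other tumors. Igf2 stood at 0.866, with tumor 3 at 7.04 against 13.48 to 14.48 in the other tumors. G6pc stood at 0.84, with tumor 1 at 8.63 against 11.90 to 12.53 in the other tumors. In normal livers, Cux2 stood at 0.861, with normal liver 4 at 6.01 against 6.07 to 6.08, and Lyve1 at 0.855, with normal liver 3 at 8.80 against 9.33 to 9.42. The 3 tumor values are spans that the choice of members favours, and the 2 normal liver values span under 1 by that choice.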

How the results depend on the processing

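The set depends on its limits and on the background step. The 165 members became 163 under median scaling, 164 under cyclic loess, 162 with no normalization between arrays and 154 in the other deposited table, with 145, 153, 135 and 148 of them shared. Subtracting the 5th percentile before log2 gave 328, with 142 shared. A tumor span over 1.5 gave 393, over 2.5 gave 88, and a normal span under 0.5 gave 83. The count of tumor 3 departing alone was 44, and under these 4 settings 89, 110, 24 and 22. It was 25 with a filter at the 75th percentile and 26 where departing meant over 1.5-fold. The count of tumors 1 and 2 above normal with tumor 3 at the normal level was 25, and 43, 44, 15 and 10 under the same 4 settings and 11 with the filter at the 75th percentile. The count of all 3 tumors below normal was 27, and 13 with a tumor span over 2.5 and 11 with a normal span under 0.5. Leaving out each array in turn gave 45 (without tumor 3) to 209 (without normal liver 3) members. It gave 0 (without tumor 3) to 56 for tumor 3 alone, 1 (without tumor 3) to 34 for tumors 1 and 2 above, and 6 (without tumor 1) to 30 for all 3 below, a count that was 16 without tumor 2. Dropping any of tumors 1 to 3 can only shrink the set, and dropping a normal liver can only widen it, by construction of the rule. The cause of the other shifts was not tested.

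The 91 members called by limma became 58 without tumor 4 and 64 (without normal liver 1) to 102 (without tumor 1, and likewise without tumor 3) when any other array was left out. The count was 63 under trended robust moderation, 63 with the filter at the 75th percentile (where 112 members were tested) and 72 with no filter on dim probes. With the replicate number as a block it was 86. Deviations of same-numbered samples correlated at 0.0607, -0.0269, -0.1447 and 0.078, so the numbers were not taken as pairs, and the block is given only as an alternative. Of 270 alternative values of the 45 named probes, 219 moved by less than the normal livers' SD, 51 moved more (26 of them under background subtraction) and 0 changed sign. Members are limited by signal over background most where normal liver lies near the median probe.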
